A study of Homo sapiens with 10 samples.

Results

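Human sensory-type neurons differentiated with a mechanoreceptor protocol were compared, across all genes, with neurons differentiated with a nociceptor protocol. The comparison used 7 of the 10 libraries of the series, chosen by the protocol named in each sample title: 3 mechanoreceptor and 4 nociceptor libraries. The other 3 libraries came from a proprioceptor protocol and entered the fits to help estimate the spread between libraries. They also entered the count filter, the scaling and, in fits with a COL1A1 term, the slope of that term. All cultures derived from RUES2 human embryonic stem cells, an established line, carrying the reporter AVIL:tdT (tdTomato at AVIL, a gene of peripheral sensory neurons), and all were harvested at day 60 in vitro. The protocols were meant to bias cells toward nociceptors or toward low-threshold mechanoreceptors. The labels do not give the factors that distinguish the protocols, do not state that reporter-positive cells were isolated, and do not say whether replicates were separate differentiations, so all tests rest on library-to-library spread that may be technical. Every library carried the same reporter and came from 1 cell line.

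Nociceptors are the sensory neurons that report harmful heat, cold, pressure or irritants. Low-threshold mechanoreceptors report light touch and hair movement. Both arise from neural crest in the embryo, a population that also gives rise to Schwann cells, satellite glia, autonomic neurons and some mesenchyme, so a culture made through a crest-like stage can hold any of these cells beside neurons. COL1A1 encodes the alpha-1 chain of type I collagen, the main fibrous collagen of mesenchymal cells.

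The 7 libraries held 27891888 to 44541262 estimated counts assigned to named genes. COL1A1 was at 392, 506, 1984 and 17 with the nociceptor and 3.26, 2.88 and 366 with the mechanoreceptor protocol. These values are TPM, kallisto's relative abundance corrected for transcript length, and are always listed for libraries 1 to 4 of the nociceptor and 1 to 3 of the mechanoreceptor protocol. Nociceptor library 4 was thus the COL1A1-poor library of its protocol, and mechanoreceptor library 3 the COL1A1-rich library of its own. Levels of the Schwann and satellite glia list were likewise high in nociceptor libraries 1 to 3 and mechanoreceptor library 3 (mean of log2 CPM, which are counts relative to library size: 7.09, 6.89, 7.57 and 4.82 against 2.00, 1.00 and 6.26), and in bulk RNA fewer cells of a type and less RNA per cell cannot be told apart. Pan-neuronal genes were high in all 7 libraries, with mean log2 CPM of 7.66 to 8.67 in nociceptor and 8.34 to 8.60 in mechanoreceptor libraries. Of 14 sensory neuron markers tested, 11 were higher and 3 lower in mechanoreceptor libraries, against 50.1% of all genes higher. Their median log2 fold change (mechanoreceptor minus nociceptor) was 0.33, and -0.15 with COL1A1 level as a covariate. For 12 pan-neuronal genes, 11 were higher, with medians of 0.41 and -0.004. Among single sensory markers, NTRK2, the BDNF receptor of many touch neurons, was at 23.0, 15.8, 20.9 and 29.8 with the nociceptor and 16.2, 12.9 and 14.8 with the mechanoreceptor protocol (TPM), and the 2 groups overlapped. SCN10A, a sodium channel that marks mature nociceptors, was at 0 to 0.0130 TPM in nociceptor and 0 to 0.134 TPM in mechanoreceptor libraries.

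**Figure D1:**
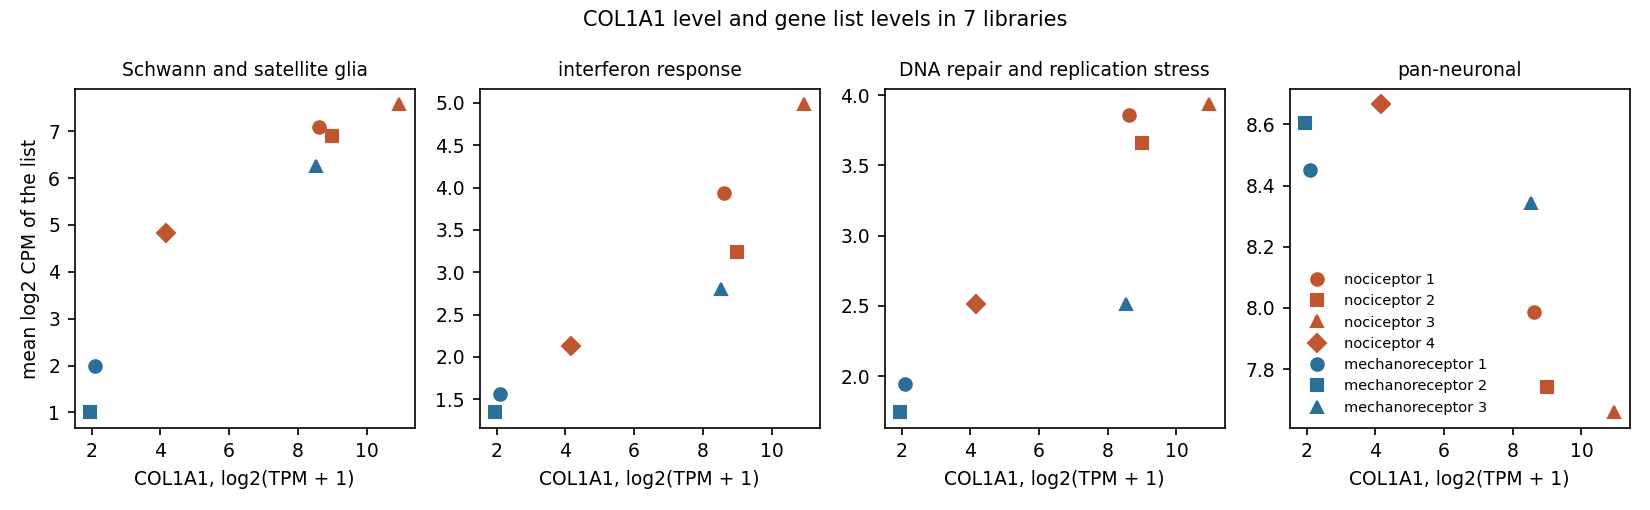
Mean log2 CPM of 4 gene lists (y axes) against COL1A1, log2(TPM + 1) (x axes), one point per library. Glia and interferon levels lie higher in the COL1A1-rich libraries and pan-neuronal levels lower, and for DNA repair the COL1A1-rich mechanoreceptor library 3 is at 2.51, level with the COL1A1-poor nociceptor library 4.

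No gene passed the adjusted threshold in edgeR. In its quasi-likelihood fit of 16130 genes, 0 genes (0.00%) had a Benjamini-Hochberg adjusted p under 0.05, and the smallest adjusted p was 0.598. At an unadjusted p under 0.05 there were 1320 genes (8.18%), of which 579 (3.59%) were higher and 741 (4.59%) lower in mechanoreceptor libraries. Leaving out nociceptor library 4 raised that number to 2580 and leaving out mechanoreceptor library 3 raised it to 2435. It dropped to 765 and 804 when nociceptor libraries 2 and 3 were left out, and to 613 and 486 when mechanoreceptor libraries 1 and 2 were. The 2 libraries whose removal raised the number were the COL1A1-poor nociceptor and the COL1A1-rich mechanoreceptor library, and whether COL1A1-associated content accounts for this was not tested.

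DESeq2, which tests the same counts with a Wald test, called 123 genes (0.763%), 15 higher (0.0930%) and 108 lower (0.670%), and 1718 genes (10.7%) had an unadjusted p under 0.05, 460 higher (2.85%) and 1258 lower (7.80%). In fits added after the data were seen, removal of nociceptor library 4 gave 860 calls and removal of mechanoreceptor library 3 gave 1371. The number was 58, 34, 21, 18 and 15 without nociceptor libraries 1, 2 and 3 and mechanoreceptor libraries 1 and 2. Of the 123 genes, 12 were called in all 7 of these fits as well, 11 lower and 1 higher. The 11 lower genes encode a homeobox factor of trunk position (HOXC9), a mesenchymal homeobox factor (PRRX1), mitotic proteins (SPC25, NUSAP1, ASPM and CKAP2L), a replication-associated protease (FAM111B), a calcium buffer (CALB1), a glypican (GPC3), a voltage-gated proton channel (HVCN1) and a small secreted protein (CYTL1). The higher gene was SLC30A8, a zinc transporter best known from insulin granules. DESeq2's own adjusted p for these 12 genes lay between 7.52e-07 (HOXC9) and 0.00164 (SLC30A8). The 12 were chosen as a description of stability and share libraries among the fits.

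A library-by-library view gave a different balance. In TPM, all 3 mechanoreceptor libraries lay above all 4 nociceptor libraries for 1298 genes (8.05%) and below them for 296 genes (1.84%). On the log2 CPM scale with trimmed-mean (TMM) scaling the same counts were 852 (5.28%) and 418 (2.59%). A gene entry with a blank name, left out here, held 8.80%, 4.49%, 2.84% and 5.68% of TPM with the nociceptor and 2.81%, 4.04% and 6.57% with the mechanoreceptor protocol, and its part in the TPM counts was not tested. Leaving out a library makes separation easier, and the total of 1594 genes in TPM went to 4859 on removal of mechanoreceptor library 3 and to 2635 or 4473 on removal of nociceptor library 1 or 4. Medians of the genes of a chromosome lay between -0.08 on chromosome 4 and 0.15 on chromosome 22 (median log2 fold change, mechanoreceptor minus nociceptor). All log2 fold changes below have this direction.

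Among genes that separated the groups in TPM, had a mean of at least 5 TPM in the higher group and code for protein, the 15 with the smallest p among those higher in mechanoreceptor libraries included 3 genes of the presynapse and several of intracellular signalling. The separation and the size of p chose them, so the values are descriptive. The share of presynaptic genes among all genes tested was not counted. RASL10B, a Ras-like small GTPase, was at 3.63, 3.15, 2.78 and 5.65 with the nociceptor and 18.8, 19.8 and 11.5 with the mechanoreceptor protocol (TPM), 2.08 ± 0.36 on the log2 scale (edgeR estimate ± SE, adjusted p = 0.598). Every mechanoreceptor library exceeded the highest nociceptor library by a wide margin, and the estimate was between 1.84 and 2.28 when each library was left out. The gene lies at chr17:35731639-35743521 (RefSeq, GRCh38.p14).

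FRMPD4, a scaffold of dendritic spines that binds PSD-95 and metabotropic glutamate receptors, was at 3.68, 1.26, 2.71 and 2.69 with the nociceptor and 10.2, 9.01 and 8.67 with the mechanoreceptor protocol (TPM), a difference of 1.64 ± 0.34 (log2). The mechanoreceptor values were close together and well above those of every nociceptor library. DOK6, an adaptor that docks on RET and TrkC receptors, was at 35.0, 34.0, 30.0 and 51.0 with the nociceptor and 128, 103 and 61.5 with the mechanoreceptor protocol (TPM), 1.20 ± 0.27 on the log2 scale. Non-overlap was a condition of choice for DOK6 as well, and mechanoreceptor library 3 lay nearer to nociceptor library 4 than to the other mechanoreceptor libraries.

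Presynaptic genes in the set included RIMS1 and RIMBP2, which organise the release site at the active zone, and TPRG1L, a synaptic vesicle protein. RIMS1 was at 14.3, 14.7, 9.78 and 9.71 with the nociceptor and 27.2, 22.1 and 25.7 with the mechanoreceptor protocol (TPM) and RIMBP2 at 8.36, 6.85, 6.02 and 11.97 with the nociceptor and 26.3, 25.9 and 19.2 with the mechanoreceptor protocol (TPM). Their log2 fold changes were 0.85 ± 0.23 and 1.32 ± 0.34, and that of TPRG1L was 1.04 ± 0.25. The groups of all 3 genes did not overlap in TPM because that was a condition of choice, and RIMS1 had the smallest fold of the 15.

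PRKCB, a protein kinase C, had a log2 fold change of 1.44 ± 0.33, RAP1GAP, which switches off Rap1, one of 1.67 ± 0.39, and APBB2, an adaptor of the amyloid precursor tail, one of 1.18 ± 0.25. MAOA, which degrades monoamines, was at 5.05, 9.17, 5.56 and 4.33 with the nociceptor and 17.6, 27.2 and 14.7 with the mechanoreceptor protocol (TPM), 1.54 ± 0.37 on the log2 scale. ALDH5A1, which clears succinic semialdehyde from GABA breakdown, and OGDHL, a 2-oxoglutarate dehydrogenase homologue, had log2 fold changes of 0.95 ± 0.26 and 1.30 ± 0.29. JPH4, a junctophilin that joins plasma membrane and endoplasmic reticulum, TUB and ARHGAP44, a GTPase-activating protein, had log2 fold changes of 1.35 ± 0.36, 1.69 ± 0.46 and 1.46 ± 0.40. With the COL1A1 level of each library as a covariate, the median of the 15 was 1.18, against 1.35 without it.

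**Figure D2:**
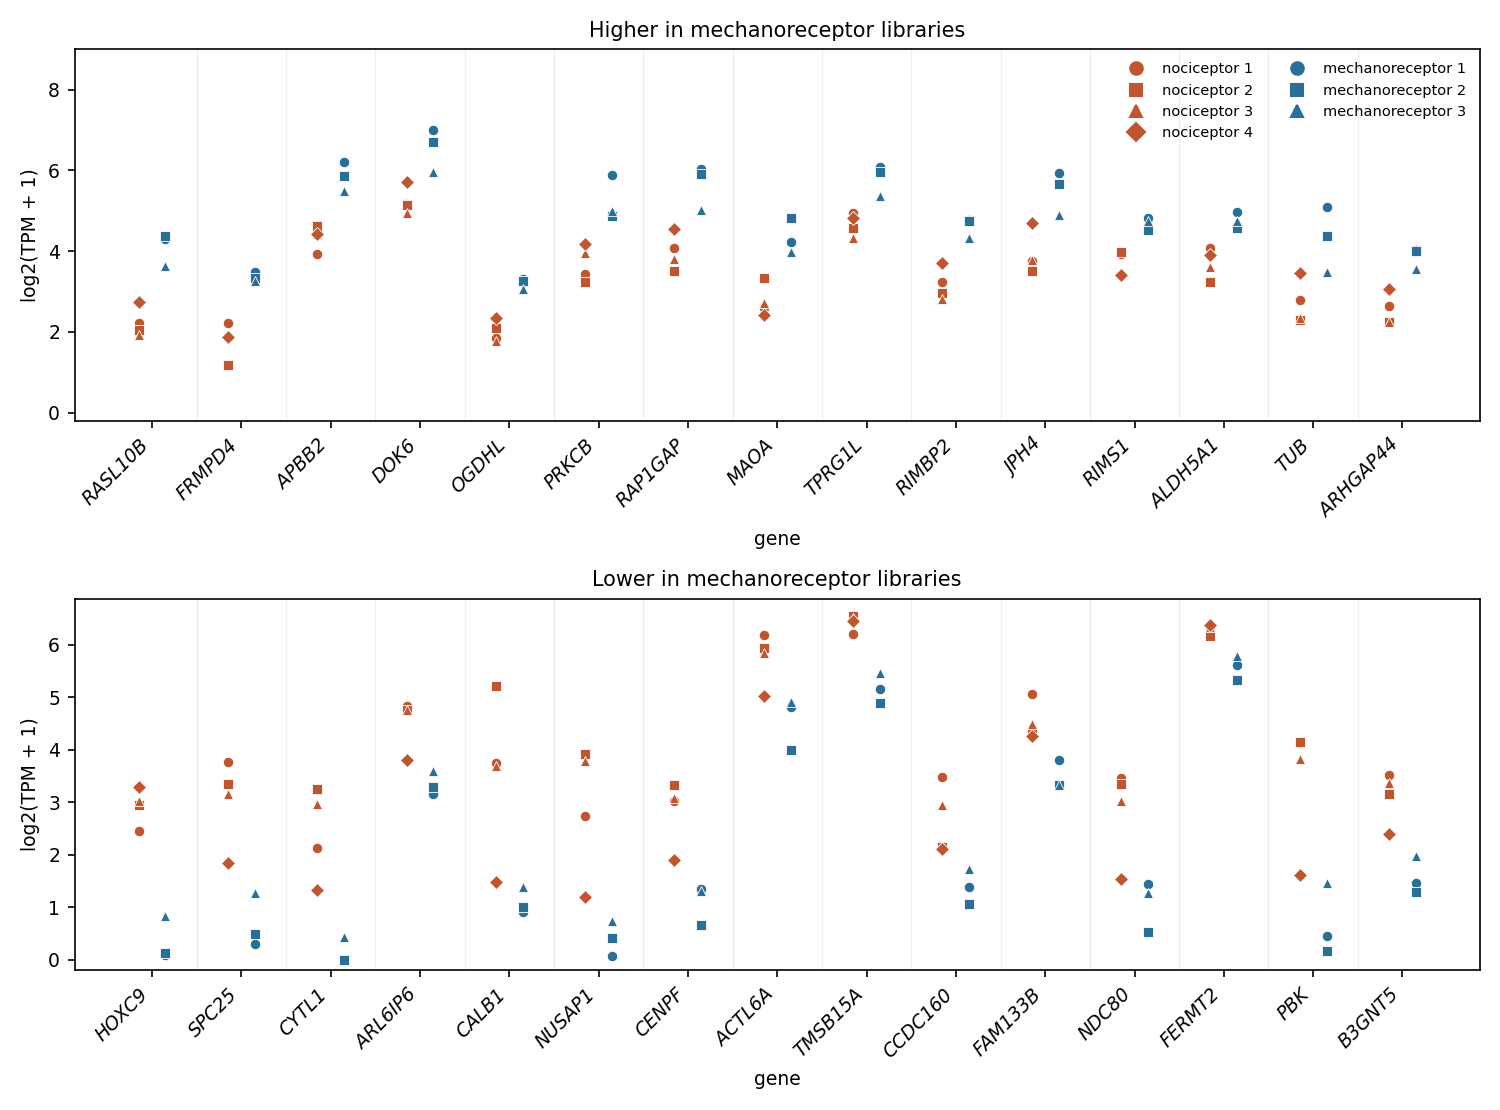
Log2(TPM + 1) of the 15 genes with the smallest p among those higher (top) and the 15 among those lower (bottom) in mechanoreceptor libraries; each point is a library, coloured by protocol and shaped by replicate number. The groups do not overlap for any gene because non-overlap was a condition of choice, and nociceptor library 4 (diamond) is the lowest nociceptor library for many of the lower genes, such as CALB1 and PBK.

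The 15 genes lower in mechanoreceptor libraries were led by HOXC9, which patterns thoracic levels of the body axis. It was at 4.47, 6.65, 7.07 and 8.73 with the nociceptor and 0.0629, 0.0915 and 0.784 with the mechanoreceptor protocol (TPM), -4.55 ± 0.85 on the log2 scale (edgeR adjusted p = 0.598, DESeq2 adjusted p = 7.52e-07). The nociceptor libraries all held the gene, COL1A1-poor library 4 at the highest level, and the mechanoreceptor libraries were all under 1 TPM. With the COL1A1 covariate the difference was -4.37. HOXC9 lies at chr12:54000161-54003337 (GRCh38.p14).

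CYTL1, a small secreted cytokine-like protein, was at 3.35, 8.50, 6.75 and 1.498 with the nociceptor and 0, 0 and 0.345 with the mechanoreceptor protocol (TPM). Only 3 counts in the mechanoreceptor group, all from library 3, stood against 396 in the nociceptor group, a ratio of 103 per count sequenced with an exact 95% interval of 35.1 to 502 that covers counting error only. CALB1, the calcium buffer calbindin, was at 12.4, 35.9, 11.8 and 1.80 with the nociceptor and 0.870, 0.994 and 1.59 with the mechanoreceptor protocol (TPM), -4.53 ± 1.14 on the log2 scale. The lowest nociceptor library, number 4, was just above mechanoreceptor library 3. With the covariate CALB1 stood at -3.20.

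Of the 15 genes, 5 encode proteins of mitosis, and the share of such genes among all genes tested was not counted. SPC25 and NDC80, subunits of the kinetochore complex that holds microtubules, had log2 fold changes of -3.52 ± 0.78 and -3.07 ± 0.85. NUSAP1, a spindle protein, CENPF, a kinetochore protein, and PBK, a mitotic kinase, had -4.94 ± 1.25, -2.79 ± 0.71 and -4.38 ± 1.23 on the same scale. SPC25 itself was at 12.6, 9.11, 7.93 and 2.58 with the nociceptor and 0.222, 0.398 and 1.41 with the mechanoreceptor protocol (TPM), the nociceptor level being lowest in library 4. With the COL1A1 covariate the 5 values were -2.69, -1.70, -2.73, -1.66 and -2.72, in the order named.

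Some lower genes had similar levels in all 4 nociceptor libraries. TMSB15A, an actin-sequestering thymosin, was at 72.2, 92.7, 89.5 and 86.2 with the nociceptor and 34.5, 28.4 and 42.8 with the mechanoreceptor protocol (TPM), -1.46 ± 0.38 on the log2 scale and -1.59 with the covariate. FERMT2 (kindlin-2), an activator of integrins, was at 79.0, 70.9, 79.3 and 81.4 with the nociceptor and 48.0, 39.2 and 54.0 with the mechanoreceptor protocol (TPM), -0.998 ± 0.28 on the log2 scale. Separation of the groups was a condition of choice, and neither gene had a low value in nociceptor library 4. ACTL6A, the progenitor-form actin-related subunit of the BAF chromatin remodeller, had a log2 fold change of -1.41 ± 0.36, and ARL6IP6, FAM133B, CCDC160 and B3GNT5 had -1.22 ± 0.28, -1.06 ± 0.29, -1.74 ± 0.47 and -2.35 ± 0.67. The median of the 15 genes was -2.79 without and -1.66 with the covariate.

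With COL1A1 as a covariate, edgeR again called 0 genes (0.00%, smallest adjusted p = 0.2004), and 749 genes (4.64%) had an unadjusted p under 0.05, 391 higher (2.42%) and 358 lower (2.22%). With a term that only divides libraries at a COL1A1 level of 100 TPM, edgeR also called 0 (0.00%, smallest adjusted p = 0.0997), but 1360 genes (8.43%) had an unadjusted p under 0.05, 461 higher (2.86%) and 899 lower (5.57%). Under this 2-class term the medians of the 15 higher and 15 lower genes described so far were 1.26 and -1.89. Covariate below means the COL1A1 level unless the 2-class term is named. The 10 separated genes with the smallest p in the covariate fit included 5 already described (CYTL1, HOXC9, SPC25, RASL10B and FRMPD4). The 5 others were all higher. INSYN2A, an inhibitory synapse protein, was at 3.98, 4.37, 4.83 and 1.94 with the nociceptor and 7.90, 7.05 and 16 with the mechanoreceptor protocol (TPM), 1.24 ± 0.50 without and 2.06 ± 0.32 with the covariate (log2). CAMKV, a kinase-like protein of dendritic spines, was at 4.41, 12.2, 12.1 and 7.34 with the nociceptor and 29.9, 26.7 and 67.6 with the mechanoreceptor protocol (TPM), 2.06 ± 0.64 without and 2.82 ± 0.50 with it. Both were highest in mechanoreceptor library 3, the COL1A1-rich one. PLPPR4, a lipid phosphatase-related membrane protein of glutamatergic synapses, CACNG2 (stargazin), which escorts AMPA receptors, and VWA5A had 1.06 ± 0.45, 1.05 ± 0.37 and 0.82 ± 0.29 without and 1.85, 1.46 and 1.20 with the covariate.

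DESeq2's 15 higher genes included several at low levels. SLC30A8 was at 0.139, 0.122, 0.149 and 0.498 with the nociceptor and 1.63, 4.00 and 7.404 with the mechanoreceptor protocol (TPM), 3.87 ± 0.87 in edgeR's log2 scale. HTR2C, a serotonin receptor, was at 0, 0.384, 0.323 and 0.0926 with the nociceptor and 6.11, 5.64 and 3.02 with the mechanoreceptor protocol (TPM), 4.49 ± 1.13 on the same scale. Neither gene exceeded 0.5 TPM in any nociceptor library. PDE11A, a phosphodiesterase of both cyclic nucleotides, was at 0.301, 0.291, 0.160 and 0.176 with the nociceptor and 0.799, 0.901 and 0.931 with the mechanoreceptor protocol (TPM), 1.79 ± 0.43 without and 1.77 with the covariate. LHX6, a LIM-homeobox factor, was at 0.228, 0.192, 0.0436 and 0.509 with the nociceptor and 5.39, 2.38 and 0.329 with the mechanoreceptor protocol (TPM), and overlapped because mechanoreceptor library 3 lay under the highest nociceptor value. SUSD2, a membrane glycoprotein, was at 2.43, 2.52, 1.76 and 6.47 with the nociceptor and 27.7, 40.0 and 4.46 with the mechanoreceptor protocol (TPM), and mechanoreceptor library 3 again lay within the nociceptor range. The other members were DGKK, SMIM45, LNX1, TMC3, COL17A1 and ELMO3, with edgeR log2 fold changes of 2.07, 2.16, 3.48, 1.52, 2.10 and 2.60, together with RASL10B, FRMPD4, OGDHL and RAP1GAP.

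Among the 15 lower genes with the smallest DESeq2 adjusted p, PRRX1 was at 1.40, 2.38, 1.38 and 1.09 with the nociceptor and 0.0663, 0 and 0.157 with the mechanoreceptor protocol (TPM), -5.76 ± 1.09 without and -4.79 with the covariate (log2, edgeR). GPC3, a glypican that binds growth factors, was at 2.22, 3.13, 8.41 and 4.36 with the nociceptor and 0.440, 0.984 and 0.763 with the mechanoreceptor protocol (TPM), -3.20 ± 0.70 without and -2.69 with it. HVCN1 was at 1.28, 1.81, 3.34 and 1.29 with the nociceptor and 0.114, 0.0610 and 0.420 with the mechanoreceptor protocol (TPM). The groups did not overlap for any of the 3, nociceptor library 4 included. DPPA4, a chromatin protein of pluripotent cells, was at 5.01, 3.96, 5.21 and 0.700 with the nociceptor and 0.0392, 0.147 and 0.674 with the mechanoreceptor protocol (TPM), and its lowest nociceptor value, in library 4, was beside that of mechanoreceptor library 3. ASPM, CKAP2L and FAM111B had log2 fold changes of -2.62 ± 0.56, -2.60 ± 0.57 and -3.35 ± 0.72, and ADAMTSL1, an extracellular matrix protein, and EPSTI1, an interferon-induced gene, had -4.18 ± 1.12 and -5.27 ± 1.17. Over the 108 lower genes the median log2 fold change in edgeR was -3.21 without and -1.92 with the covariate, and over the 15 higher genes it was 2.10 and 1.77.

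Genes outside the usual sensory marker lists were then read as 32 pathway lists, beside 15 lists of cell-type markers. They are described by counts and medians, against a median over all 16130 genes of 0.00 (50.1% above 0, 49.9% below 0, 8.18% at p under 0.05). The plot of list medians shows that those most negative without a COL1A1 term mostly lay nearer 0 with the covariate. Under the 2-class term the medians were -1.15 for the interferon response, -0.24 for MHC class I, -0.76 for NF-kB and cytokines, -0.96 for DNA repair, -1.31 for mesenchyme and -0.07 for the IGF axis, while that of the glia list, -2.59, was farther from 0 than without any COL1A1 term.

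**Figure D3:**
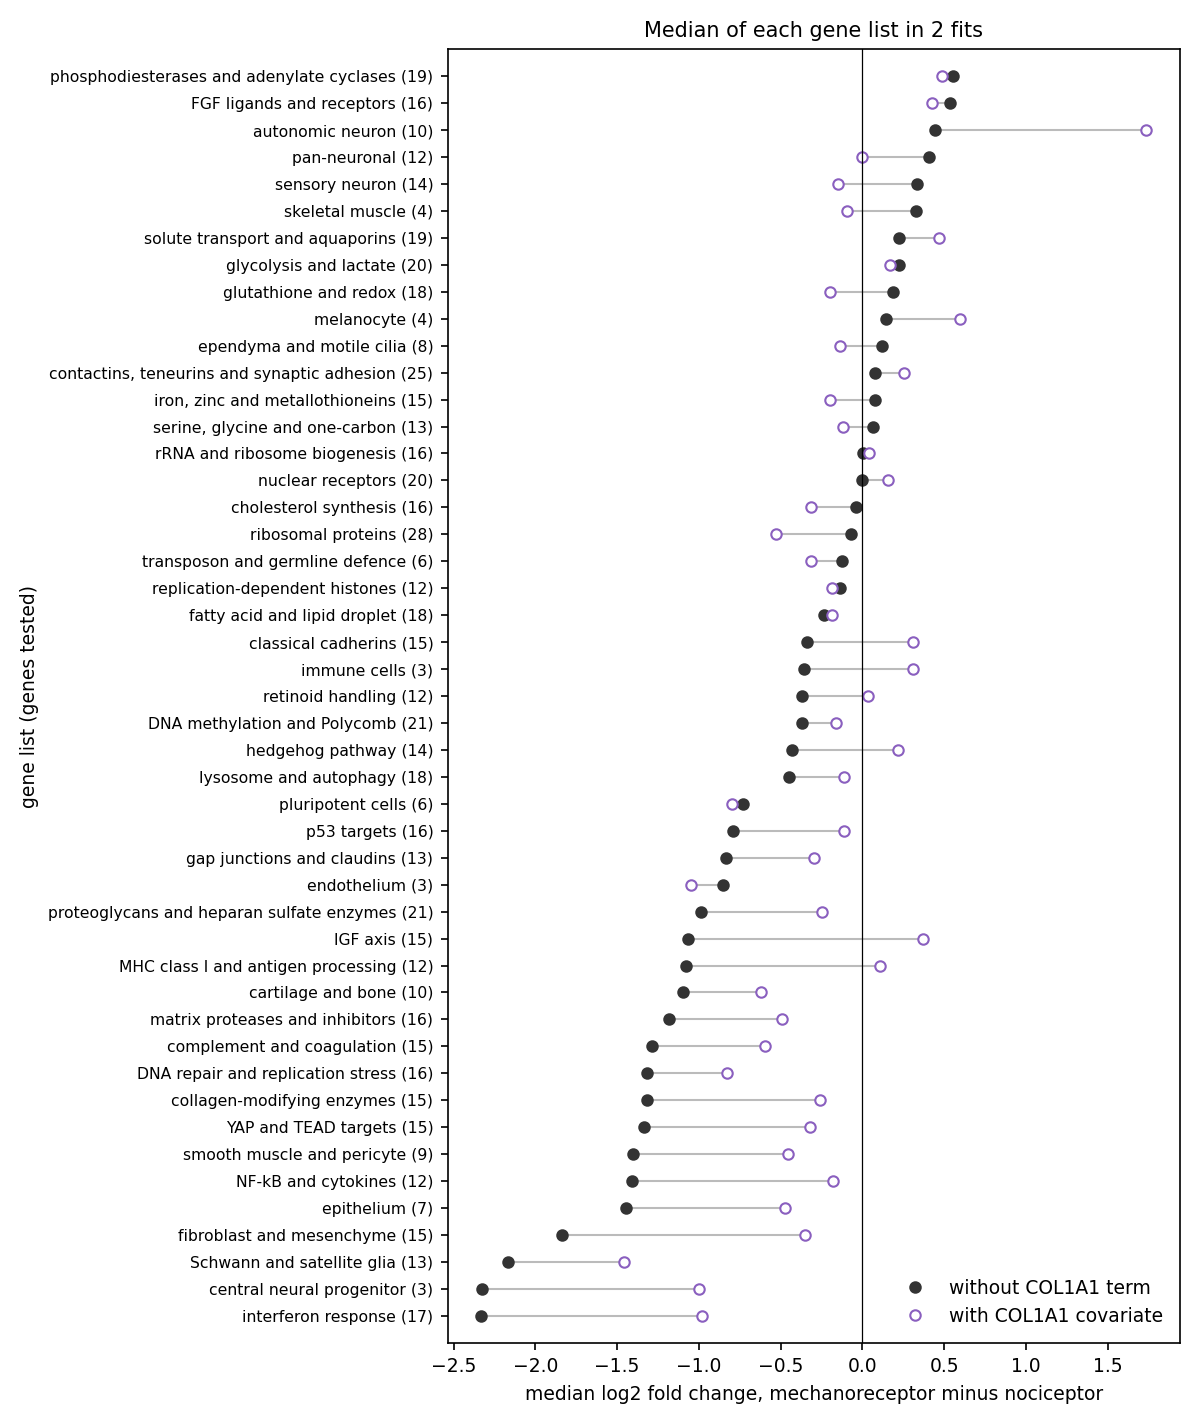
Median log2 fold change (mechanoreceptor minus nociceptor) of each gene list, with the number of genes tested in brackets, in the fit without a COL1A1 term (filled) and with COL1A1 level as a covariate (open). The interferon response list goes from -2.33 to -0.98, the mesenchyme list from -1.84 to -0.35, the MHC class I list from -1.08 to 0.11 and the DNA repair list from -1.32 to -0.83. The mesenchyme list includes COL1A1 itself, so its move is in part built in.

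Interferon-stimulated genes had mostly negative log2 fold changes. Interferons induce these genes through the interferon-stimulated response element in their promoters. Of the 17 listed genes, 16 had a negative log2 fold change, the median was -2.33, and 9 had an unadjusted p under 0.05. None passed edgeR's adjusted threshold, and DESeq2 called 3 (IFI44L, IFITM1 and ISG15) against 0.670% of all genes called lower. The direction count was 16 or 17 of 17 with any 1 library left out. Removal of nociceptor library 3 left 4 genes at p under 0.05 and a median of -1.04, and removal of mechanoreceptor library 1 or 2 left 4 or 3 genes.

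The core of this element, GAAA and GAAA separated by a pair of any bases and searched on both strands, was present within the 250 bases before the start of transcription in 10 of the 13 listed genes with a RefSeq promoter (76.9%) and in 839 of 27305 promoters in all (3.07%). The list was chosen as interferon-stimulated genes, so its share of matches says nothing about these data. The core of the cell-cycle gene homology region, TTTGAA, was searched in the same way for 24 lower genes named by rule. It was in 3 of their 17 promoters (17.6%) and in 13.6% of all promoters. A match describes the letters and not use of the site. The promoters of 4 genes that carry the interferon core are shown because the RNA values of these genes are given next. Each is written 5′ to 3′ on the strand of its gene (RefSeq, GRCh38.p14), with matches on either strand in capitals.
ISG15 promoter, chr1:1013247-1013496, plus strand: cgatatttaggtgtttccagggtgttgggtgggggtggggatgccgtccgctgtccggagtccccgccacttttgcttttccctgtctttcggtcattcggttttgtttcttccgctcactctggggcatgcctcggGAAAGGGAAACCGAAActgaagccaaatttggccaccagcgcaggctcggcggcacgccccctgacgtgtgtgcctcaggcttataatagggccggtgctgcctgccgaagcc
IFI6 promoter, chr1:27672193-27672442, minus strand: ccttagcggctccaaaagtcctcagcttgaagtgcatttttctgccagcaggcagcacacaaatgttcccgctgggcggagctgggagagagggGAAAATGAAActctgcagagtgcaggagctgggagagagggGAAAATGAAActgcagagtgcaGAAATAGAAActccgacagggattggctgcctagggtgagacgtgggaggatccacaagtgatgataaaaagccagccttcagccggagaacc
IFI44L promoter, chr1:78620198-78620447, plus strand: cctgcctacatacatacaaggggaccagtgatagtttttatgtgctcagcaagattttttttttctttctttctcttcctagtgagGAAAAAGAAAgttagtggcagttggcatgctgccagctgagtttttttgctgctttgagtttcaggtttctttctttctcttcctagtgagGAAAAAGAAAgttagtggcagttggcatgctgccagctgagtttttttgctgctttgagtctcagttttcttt
IFIT1 promoter, chr10:89392373-89392622, plus strand: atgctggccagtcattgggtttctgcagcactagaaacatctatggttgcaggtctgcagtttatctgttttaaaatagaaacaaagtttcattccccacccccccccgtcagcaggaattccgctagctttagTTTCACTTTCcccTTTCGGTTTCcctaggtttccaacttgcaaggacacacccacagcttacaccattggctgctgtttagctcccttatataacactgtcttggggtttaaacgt

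ISG15, which encodes a ubiquitin-like modifier, was at 80.8, 71.7, 391 and 9.13 with the nociceptor and 12.6, 9.28 and 26.9 with the mechanoreceptor protocol (TPM). The difference was -3.26 ± 1.06 on the log2 scale, but nociceptor library 4 was below every mechanoreceptor library. In ISG15's promoter the capitals form 1 block of overlapping cores. IFI6, a mitochondrial and endoplasmic reticulum protein, was at 215, 90.0, 948 and 52.9 with the nociceptor and 34.9, 36.1 and 98.8 with the mechanoreceptor protocol (TPM), -2.69 ± 0.94 on the log2 scale. IFIT1, which binds foreign RNA ends, was at 7.18, 2.55, 14.4 and 0.545 with the nociceptor and 1.74, 0.696 and 1.34 with the mechanoreceptor protocol (TPM), -2.46 ± 0.89 on the log2 scale. For both genes nociceptor library 3 was the highest of the 7 and nociceptor library 4 lay within (IFI6) or below (IFIT1) the mechanoreceptor range. Without nociceptor library 3 the log2 fold changes were -1.87 for ISG15 and -1.18 for IFI6.

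IFITM1, a membrane protein that blocks viral entry, was at 151, 28.5, 282 and 5.57 with the nociceptor and 3.48, 1.65 and 19.1 with the mechanoreceptor protocol (TPM), -4.11 ± 1.44 on the log2 scale. Its reads could be shared with the closely similar IFITM3, at -2.53 ± 1.72, so the split between them is uncertain. IFI44L was at 9.45, 0.396, 4.05 and 0.241 with the nociceptor and 0.0705, 0.160 and 0.220 with the mechanoreceptor protocol (TPM), -4.07 ± 1.04, and separated the groups by a narrow gap. Of the 17 listed genes, 1 lay below without overlap in TPM, against 1.84% of all genes. IFIT2, IFIT3, IFI27 and OAS1 had log2 fold changes of -2.36 ± 0.99, -2.33 ± 0.95, -2.69 ± 1.12 and -1.04 ± 0.38. IFI27 was at -0.67 without nociceptor library 3, and IFITM1 at -3.16. With the COL1A1 covariate 15 of 17 genes were still below 0, the median was -0.98, and 2 genes had p under 0.05. The mean level of the list was 3.94, 3.24, 4.98 and 2.13 log2 CPM (nociceptor) against 1.57, 1.35 and 2.80 (mechanoreceptor).

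**Figure D4:**
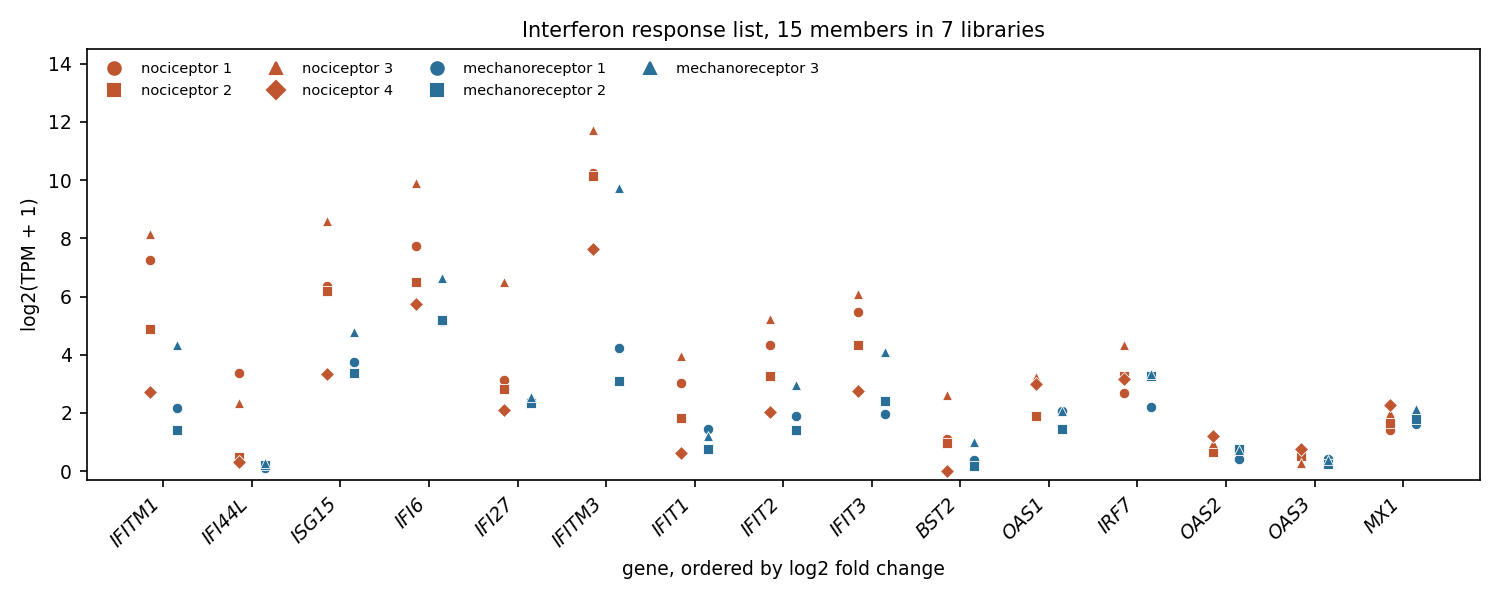
Log2(TPM + 1) of 15 of the 17 interferon response genes, ordered by log2 fold change; each point is a library. Nociceptor library 3 (triangle) is highest for most genes on the left, and nociceptor library 4 (diamond) lies at or below the mechanoreceptor libraries for genes such as ISG15 and IFIT1.

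Antigen presentation, complement and inflammatory signalling also had mostly negative values, and medians nearer 0 with the COL1A1 covariate. MHC class I molecules display peptides cut by the proteasome and pumped by TAP. Of 12 listed genes, 11 were lower, with a median of -1.08, and 1 (PSMB9, an inducible proteasome subunit, -2.56 ± 0.97) had p under 0.05. With the covariate 4 of 12 were lower and the median was 0.11. TAP2, a transporter subunit, was higher, at 3.48, 3.99, 5.71 and 5.17 with the nociceptor and 6.51, 6.76 and 7.46 with the mechanoreceptor protocol (TPM). Without mechanoreceptor library 3 the list's median was -1.99, and without nociceptor library 3 it was -0.60.

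Class II genes were examined after their values were seen. HLA-DQA1 was at 21.4, 27.0, 83.2 and 5.10 with the nociceptor and 2.63, 1.25 and 6.36 with the mechanoreceptor protocol (TPM), -1.79 ± 0.42 on the log2 scale (DESeq2 adjusted p = 0.0103) and -1.38 with the covariate. The group means of these TPM lie farther apart than the estimate from counts, and the cause was not tested. HLA-DRB1 was at 161, 264, 653 and 11.9 with the nociceptor and 14.8, 18.1 and 59.6 with the mechanoreceptor protocol (TPM), -3.34 ± 1.09 and -1.75. HLA-DRA, the partner chain of HLA-DRB1, was at 129, 200.3, 411 and 0 with the nociceptor and 0.302, 0.0664 and 32.0 with the mechanoreceptor protocol (TPM). CD74 was at 177, 259, 694 and 0.484 with the nociceptor and 0.115, 0.214 and 84.9 with the mechanoreceptor protocol (TPM). HLA-DRA and CD74 were high in nociceptor libraries 1 to 3 and in mechanoreceptor library 3 and near 0 in the other 3 libraries. HLA genes are polymorphic and alike, so reads may be split among them.

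Complement and coagulation genes were lower in 11 of 15 cases, with a median of -1.29 (-0.60 with the covariate, -2.43 without mechanoreceptor library 3). SERPING1, the C1 inhibitor, was at 5.48, 6.36, 48.8 and 2.47 with the nociceptor and 0.542, 0.814 and 2.91 with the mechanoreceptor protocol (TPM), -3.87 ± 1.13 on the log2 scale and -2.11 without nociceptor library 3, the highest of the 7. CFI, a protease that cleaves C3b, was at 1.10, 0.644, 1.18 and 0.208 with the nociceptor and 0.0427, 0.0622 and 0.111 with the mechanoreceptor protocol (TPM), -3.51 ± 0.83. DESeq2 called both. C1S, the C1 protease, had the opposite sign at 0.71 ± 0.40. Of 12 NF-kB and cytokine genes, 11 were lower, with a median of -1.41 (-0.18 with the covariate, -3.21 without mechanoreceptor library 3). ICAM1, an adhesion receptor, had -2.02 ± 1.06 and VCAM1, its counterpart, was higher in all 3 mechanoreceptor libraries, at 1.49, 1.51, 0.411 and 0.415 with the nociceptor and 2.33, 2.49 and 2.58 with the mechanoreceptor protocol (TPM), 1.31 ± 0.78. Of the 12 NF-kB and cytokine genes, 1 lay above without overlap in TPM, against 8.05% of all genes.

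DNA repair and replication stress genes all had negative log2 fold changes. These genes supply nucleotides, replicate DNA and repair breaks in dividing cells. All 16 were lower, with a median of -1.32, and 9 had p under 0.05. DESeq2 called 3 (TYMS, RRM2 and EXO1), against 0.670% of all genes called lower. With any 1 library left out 15 or 16 were lower, 8 to 11 had p under 0.05 and the median was between -1.19 and -1.55. With the covariate all 16 were lower, the median was -0.83 and 3 had p under 0.05. The list's level was 3.86, 3.66, 3.93 and 2.51 log2 CPM (nociceptor) against 1.94, 1.74 and 2.51 (mechanoreceptor), with nociceptor library 4 and mechanoreceptor library 3 at one level.

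TYMS, thymidylate synthase, was at 45, 61.5, 93.6 and 10.4 with the nociceptor and 4.13, 2.29 and 14.05 with the mechanoreceptor protocol (TPM), -3.05 ± 0.89 on the log2 scale. RRM2, the ribonucleotide reductase subunit made in S phase, was at 24.1, 28.4, 30.1 and 2.42 with the nociceptor and 0.903, 0.477 and 3.95 with the mechanoreceptor protocol (TPM), -3.94 ± 1.24. In both genes mechanoreceptor library 3 was above nociceptor library 4. BRCA2, which acts in recombination repair of breaks, was at 3.86, 2.08, 1.60 and 1.11 with the nociceptor and 0.221, 0.102 and 0.748 with the mechanoreceptor protocol (TPM), -2.21 ± 0.70, and EXO1, a resection exonuclease, was at 5.97, 3.65, 6.72 and 1.92 with the nociceptor and 0.376, 1.47 and 0.718 with the mechanoreceptor protocol (TPM), -2.54 ± 0.81. The groups of these 2 of the 16 genes did not overlap, against 1.84% of all genes with the mechanoreceptor libraries below. FANCD2, of the crosslink repair pathway, had -1.24 ± 0.39. Of 12 replication-dependent histone genes 9 were lower and 0 had p under 0.05.

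Within the DNA methylation and Polycomb list, EZH2 and EZH1 had opposite signs. EZH2, the Polycomb methyltransferase of dividing cells, was at 7.65, 7.51, 9.55 and 3.23 with the nociceptor and 2.64, 1.99 and 4.04 with the mechanoreceptor protocol (TPM), -1.51 ± 0.52 on the log2 scale. EZH1, its counterpart in non-dividing cells, was at 12.3, 9.44, 7.98 and 18.6 with the nociceptor and 22.2, 16.5 and 15.8 with the mechanoreceptor protocol (TPM), 0.67 ± 0.28. Nociceptor library 4 was on the mechanoreceptor side of its own group for both genes. UHRF1, which maintains DNA methylation at replication, had -3.83 ± 1.34, DNMT3A -1.01 ± 0.39, and HMGA2, a chromatin protein of embryonic cells, -2.51 ± 0.83. With the covariate the 5 values were -0.66, 0.53, -1.52, -0.50 and -1.56. Over the 21 listed genes 14 were lower, with a median of -0.37, which was -0.56 without mechanoreceptor library 3.

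Pluripotency markers were tested because cultures derived from stem cells can retain such cells. All 6 that passed the count filter were lower, with a median of -0.73 (-1.13 without mechanoreceptor library 3). DESeq2 called 2, DPPA4 and L1TD1, against 0.670% of all genes called lower. L1TD1, an RNA-binding protein of pluripotent cells, was at 2.41, 0.722, 3.20 and 1.04 with the nociceptor and 0.173, 0.356 and 0.453 with the mechanoreceptor protocol (TPM), -3.15 ± 0.86 on the log2 scale. NANOG, a defining factor, was at 0.245 TPM or less in all 7 libraries, and POU5F1, which did not pass the count filter, was at 0.333 TPM or less. Targets of p53 were lower in 14 of 16 cases, with a median of -0.79 and of -0.11 with the covariate. CDKN1A, the p21 cell-cycle inhibitor, was at 285, 688, 649.8 and 66.4 with the nociceptor and 74.4, 77.2 and 226 with the mechanoreceptor protocol (TPM), -1.91 ± 0.81, with nociceptor library 4 below all mechanoreceptor libraries. BAX had -1.29 ± 0.55 and PLK3, higher in every mechanoreceptor library, 0.43 ± 0.28. Of the 16 p53 targets, 2 lay above without overlap in TPM, against 8.05% of all genes.

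Glial, mesenchymal and matrix lists moved strongly with mechanoreceptor library 3. The mesenchyme list includes COL1A1 itself, so its change with the covariate is in part built in. The glia list had 12 of 13 genes lower with a median of -2.17 (-1.46 with the covariate, -2.59 with the 2-class term, -5.54 without mechanoreceptor library 3), and the mesenchyme list 13 of 15 with a median of -1.84 (-0.35 and -4.82). Of collagen-modifying enzymes, 15 of 15 were lower, with a median of -1.32, which was -0.26 with the covariate, -3.25 without mechanoreceptor library 3 and -0.88 without mechanoreceptor library 2. Matrix proteases and inhibitors were lower in 15 of 16 cases (median -1.18, covariate -0.49), proteoglycan genes in 18 of 21 (-0.99, -0.25), YAP and TEAD targets in 14 of 15 (-1.34, -0.32) and the IGF axis in 13 of 15 (-1.06, 0.37). Without mechanoreceptor library 3 these 4 medians were -1.70, -1.68, -3.49 and -1.81. Without nociceptor library 2 the IGF median was -0.50, without nociceptor library 3 it was -0.55 and without mechanoreceptor library 2 it was -0.69. SERPINH1, the collagen chaperone, had -1.70 ± 1.25 and LOXL1, a lysyl oxidase, -2.35 ± 1.13, with -0.26 and -0.55 under the covariate. MMP2, a gelatinase, had -2.79 ± 1.22 and CCN2, a YAP target, -2.39 ± 1.37.

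A few matrix genes separated the groups in TPM, nociceptor library 4 included. Mechanoreceptor libraries lay below without overlap for 1 of 16 matrix protease, 2 of 21 proteoglycan and 2 of 15 mesenchyme genes. The same held for 2 of 10 cartilage and bone genes and 0 of 15 collagen-modifying enzymes, against 1.84% of all genes. CTSK, a collagen-degrading cathepsin, was at 1.76, 1.74, 2.21 and 4.24 with the nociceptor and 0.764, 1.14 and 1.37 with the mechanoreceptor protocol (TPM), -1.20 ± 0.54 without and -1.23 with the covariate. COL2A1, the cartilage collagen, was at 2.44, 2.79, 2.79 and 7.20 with the nociceptor and 0.206, 0.571 and 0.974 with the mechanoreceptor protocol (TPM), -3.12 ± 1.02 and -2.88. For both genes the COL1A1-poor nociceptor library 4 was the highest of the 7. MGP, an inhibitor of calcification, and ASPN, a small leucine-rich proteoglycan, also separated, at -3.41 ± 1.08 and -3.60 ± 0.86. The groups of TIMP2, a metalloprotease inhibitor, overlapped narrowly: it was at 30.1, 27.9, 34.7 and 51.4 with the nociceptor and 20.4, 16.6 and 28.7 with the mechanoreceptor protocol (TPM), -0.83 ± 0.32, and nociceptor library 4 was highest here too. SPP1 (osteopontin) had -3.85 ± 1.17 and was called by DESeq2, while DCN (decorin) had -1.71 ± 0.69. HS6ST2, a heparan sulfate sulfotransferase, had a positive log2 fold change, at 9.97, 37.4, 19.8 and 11.5 with the nociceptor and 35.3, 43.9 and 62.0 with the mechanoreceptor protocol (TPM), 1.11 ± 0.60. IGFBP2, a secreted IGF binding protein, was at 347, 653, 916 and 92.7 with the nociceptor and 9.48, 13.7 and 344 with the mechanoreceptor protocol (TPM), and IGFBPL1 had 1.00 ± 0.58.

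Junction and adhesion genes were mixed. Of 13 gap junction and claudin genes, 8 were lower, with a median of -0.84. GJA1 and GJC1, connexins of glia and mesenchyme, had -2.12 ± 0.88 and -2.83 ± 1.15. CDH6, a cadherin of crest and early glia, was at 51.6, 38.4, 87.0 and 6.30 with the nociceptor and 2.94, 1.02 and 13.3 with the mechanoreceptor protocol (TPM), -3.34 ± 1.32 on the log2 scale, and -1.32 with the covariate. For classical cadherins, 8 of 15 lower, the median was -0.34, against 0.31 with the covariate (11 of 15 higher) and 0.40 with the 2-class term. Its sign also turned on removal of nociceptor library 1 (0.41) or 3 (0.35) or of mechanoreceptor library 1 (0.09) or 2 (0.08). On removal of mechanoreceptor library 3 it was -1.11 and on removal of nociceptor library 4 it was -0.53.

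Pathway lists with higher values in mechanoreceptor libraries showed small differences. Among cell-type lists, 6 of 10 autonomic neuron genes were higher and 0 had p under 0.05. Their median was 0.45, against 1.74 with the covariate (8 of 10 higher) and 1.44 with the 2-class term. It was -0.32 without mechanoreceptor library 3. The list's level was 0.44, 5.09, 3.69 and -1.46 log2 CPM (nociceptor) against 1.90, 3.74 and 4.59 (mechanoreceptor). Phosphodiesterases and adenylate cyclases, which set cyclic nucleotide levels, were higher in 13 of 19 cases, with a median of 0.55, which was 0.49 with the covariate. Across the fits that left out 1 library it was between 0.34 (without mechanoreceptor library 3) and 0.64 (without nociceptor library 4). ADCY3, a cyclase, was at 4.89, 5.70, 7.62 and 11.9 with the nociceptor and 10.6, 13.7 and 15.9 with the mechanoreceptor protocol (TPM), 0.82 ± 0.39 on the log2 scale, and ADCY2 had 1.35 ± 0.78 without and 2.27 with the covariate, and 0.34 without mechanoreceptor library 3. Only PDE11A, described above, had p under 0.05 in this list without the covariate.

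Glycolysis and lactate genes were higher in 16 of 20 cases with a median of 0.22, and in 6 of 20 all mechanoreceptor libraries lay above all nociceptor libraries in TPM, against 8.05% of all genes. GPI, glucose-6-phosphate isomerase, was at 128, 207, 193 and 214 with the nociceptor and 306, 341 and 301 with the mechanoreceptor protocol (TPM), 0.68 ± 0.31 on the log2 scale. HK1, the neuronal hexokinase, was at 107, 121, 162 and 171 with the nociceptor and 196, 209.8 and 221 with the mechanoreceptor protocol (TPM), 0.45 ± 0.29. Neither had an unadjusted p under 0.05, and no gene of the list did. The TPM scale as a whole was shifted, with a median over all genes of 0.11 on log2(TPM + 1) and of 0.15 on log2(TPM + 0.1), and separation was more frequent on the higher side both in TPM and in log2 CPM (5.28% against 2.59%). The list's median was 0.08 on removal of mechanoreceptor library 2, and 0.12 or 0.35 on removal of nociceptor library 1 or 2.

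FGF ligands and receptors were higher in 10 of 16 cases, with a median of 0.53 (0.43 with the covariate, 0.22 on removal of mechanoreceptor and 0.34 of nociceptor library 3). FGF12, an intracellular partner of sodium channels, was at 52.0, 36.5, 20.6 and 44.0 with the nociceptor and 87.1, 139 and 64.4 with the mechanoreceptor protocol (TPM), 0.90 ± 0.46 on the log2 scale, and FGF5, a secreted ligand, was at 3.92, 8.67, 13.1 and 5.12 with the nociceptor and 3.12, 1.79 and 2.46 with the mechanoreceptor protocol (TPM), -1.43 ± 0.65. Of the 16 genes, 2 lay above and 1 below without overlap in TPM, against 8.05% and 1.84% of all genes. FGF12 (above) and FGF5 (below) were among them. ATP1B1, a subunit of the sodium pump, had 0.89 ± 0.37, and THRA, a thyroid hormone receptor, was at 10.9, 16.9, 24.1 and 26.2 with the nociceptor and 40.0, 46.6 and 27.4 with the mechanoreceptor protocol (TPM), 0.84 ± 0.36. DRGX, a factor of dorsal root ganglion neurons, had 1.61 ± 0.53 without and 0.84 with the covariate.

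Of 18 fatty acid and lipid droplet genes 12 had a negative log2 fold change. PLIN2, which coats lipid droplets, was at 3.89, 13.1, 13.6 and 3.90 with the nociceptor and 3.06, 1.66 and 2.96 with the mechanoreceptor protocol (TPM), -1.92 ± 0.63 on the log2 scale, and APOE, a lipid carrier made by glia, had -1.46 ± 0.65. DGAT2, which makes triglyceride, was higher, at 6.99, 9.83, 9.52 and 13.7 with the nociceptor and 24.3, 18.0 and 14.52 with the mechanoreceptor protocol (TPM), 0.74 ± 0.35. Of the 18 genes, 1 lay above (DGAT2) and 1 below (PLIN2) without overlap in TPM, against 8.05% and 1.84% of all genes. Ribosomal protein genes were lower in 18 of 28 cases with a median of -0.07, and in 28 of 28 cases with a median of -0.53 under the covariate. Their direction turned on log2(TPM + 1), where 4 of 28 were lower, so no direction is given for this family.

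Transcript tables gave the same overall count. Among 76818 transcripts edgeR called 0 (0.00%, smallest adjusted p = 0.683). Unadjusted p was under 0.05 for 3768 transcripts (4.91%), 1656 higher (2.16%) and 2112 lower (2.75%). DESeq2 called 529 (0.689%), 186 higher (0.242%) and 343 lower (0.447%), against 6123 (7.97%) at an unadjusted p under 0.05 (2.74% higher, 5.23% lower). Of the 529, 155 had 1 group at 0 in every library. Kallisto divides reads among overlapping transcripts by estimation, so a transcript listed at 0 may be an assignment and not absence. The groups did not overlap in TPM for 5133 transcripts with the mechanoreceptor libraries above (6.68%) and 1540 with them below (2.00%). The 10 transcripts with the smallest p among separated ones with a mean of at least 5 TPM included 2 with no name in the annotation used (GENCODE 29) and 8 named ones: USP22-204, ASIC2-203, RASL10B-201, DVL1-201, CALM3-208, TPM3-204, ENO2-211 and TM7SF3-216.

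ASIC2-203 is a processed transcript, annotated without a coding frame, of the gene for an acid-sensing ion channel. It was at 0.541, 0.172, 0.432 and 0.593 with the nociceptor and 5.67, 5.52 and 6.76 with the mechanoreceptor protocol (TPM), 3.61 ± 0.62 on the log2 scale. It made up 2.77% to 4.75% of the gene's TPM in nociceptor and 20.99% to 24.2% in mechanoreceptor libraries, while the gene as a whole differed by 1.02 ± 0.37. The share was 17.9% to 25.2% in the 3 proprioceptor libraries, so the nociceptor libraries were the low ones.

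TPM3-204, a tropomyosin 3 isoform, was at 3.19, 3.89, 3.63 and 3.63 with the nociceptor and 15.3, 37.3 and 29.2 with the mechanoreceptor protocol (TPM), 2.73 ± 0.52. Its share of the gene was 0.782% to 1.40% in nociceptor and 6.07% to 12.3% in mechanoreceptor libraries, and the gene as a whole had the opposite sign, -0.49 ± 0.34. DVL1-201, of the Wnt adaptor Dishevelled 1, was at 1.19, 1.33, 0.890 and 1.77 with the nociceptor and 7.32, 4.90 and 6.20 with the mechanoreceptor protocol (TPM), 2.08 ± 0.39, with shares of 9.18% to 25.2% and 38.0% to 57.7%, and the gene had 0.67 ± 0.38. For these 3 transcripts the estimate was larger than that of the gene, and the difference between transcript and gene was not tested.

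USP22-204, of a histone deubiquitinase gene, was listed at 0 in all 4 nociceptor libraries and at 6.79, 8.26 and 5.71 TPM in the mechanoreceptor libraries, where it made up 7.09% to 11.2% of the gene. The gene itself had 0.72 ± 0.31. TM7SF3-216, a retained-intron transcript, was listed at 0 in all 3 mechanoreceptor libraries and at 4.88, 3.61, 3.75 and 12.3 TPM in the nociceptor libraries. No fold is given for either. CALM3-208, of a calmodulin gene, and ENO2-211, of neuronal enolase, were at most 5.68% and 4.70% of their genes' TPM in any of the 7 libraries, with log2 fold changes of 2.43 ± 0.46 and 1.48 ± 0.28, against 0.92 ± 0.30 and 0.80 ± 0.39 for the genes. RASL10B-201 held 90.4% or more of RASL10B in every one of the 7 libraries.

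**Figure D5:**
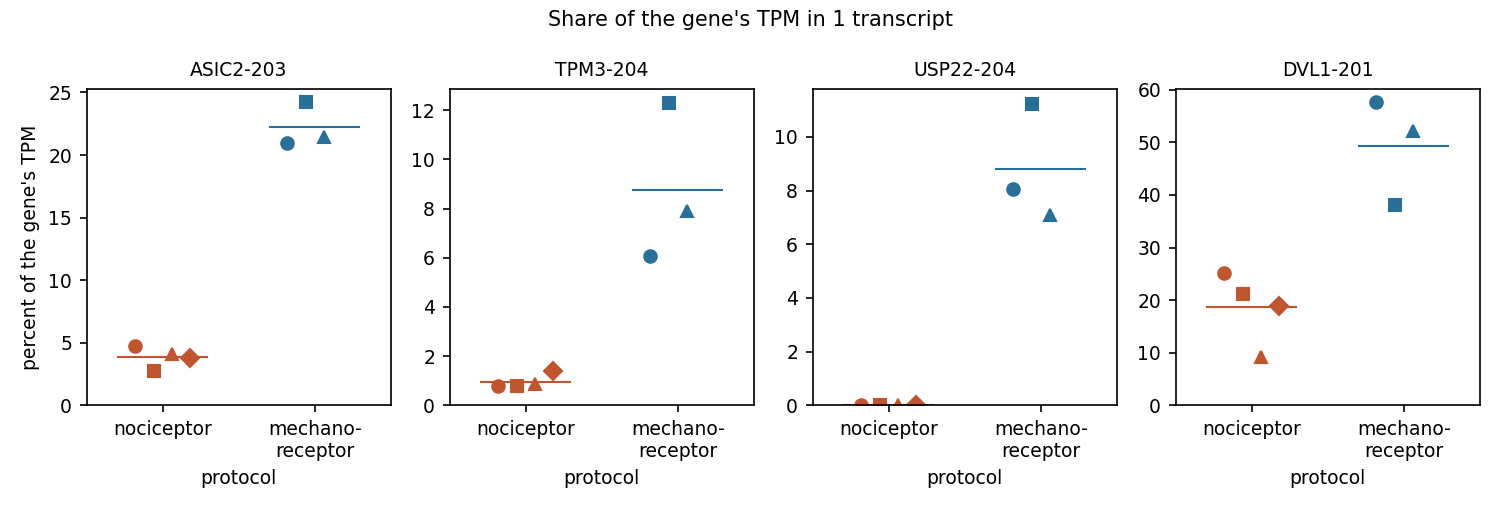
Percent of the gene's TPM held by ASIC2-203, TPM3-204, USP22-204 and DVL1-201 in each library; the horizontal line is the group mean. The mechanoreceptor libraries lie above the nociceptor libraries for all 4, and ASIC2-203 goes from at most 4.75% to at least 20.99%.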

How the data were processed

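The authors deposited estimated counts and TPM for each gene and transcript, made with kallisto 0.50.1 on GRCh38.p14 per the submitters' processing notes; the annotation and the way transcripts were summed to genes are not given in the sources used here. Per the labels' protocols, total RNA was made into cDNA with a Clontech Ultra Low kit and into libraries with Nextera XT, which does not mark strand; reads of a gene and its antisense partner are therefore pooled. The deposited estimated counts were whole numbers as given. A gene entry with a blank name, 0.733% to 1.66% of each library's counts and 2.81% to 8.80% of its TPM, was left out, and the TPM of other genes were not rescaled.

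Groups came from the sample titles. Genes with enough counts (16130 of 30357, edgeR's filter) and transcripts (76818 of 207133) were fitted with all 10 libraries by edgeR's quasi-likelihood test (edgeR 4.0.16, R 4.3.3) with TMM scaling and Benjamini-Hochberg adjustment over all genes; DESeq2 1.42.0 and limma 3.58.1 served as alternatives. The common biological coefficient of variation was 0.550. The covariate fits added the log2 COL1A1 level of each library, or a 2-class term for COL1A1 of at least 100 TPM. The procedure was checked on simulated counts. No 2 libraries of the same protocol agreed within sampling noise. Libraries of different protocols were not compared in this way.

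Genes were named by rule: the 15 higher and 15 lower protein-coding genes with the smallest p among those whose groups did not overlap in TPM and whose higher group averaged at least 5 TPM; the 10 smallest p with the COL1A1 covariate; up to 15 per direction by DESeq2 adjusted p; list members as examples; and the 10 leading transcripts. The HLA class II genes were chosen after their values were seen. Members and lists were chosen with earlier results of these data known. Some list members are not reported here.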

Additional observations from a re-analysis of the deposited data

Results flagged for a closer look

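In 10 of the 129 genes whose 4 nociceptor libraries were examined, 1 library stood apart: its gap to the nearest other library, as a share of the group's whole range in TPM, was above Dixon's 95% critical value for 4 samples. Chance alone flags about 1 in 20 groups, and the genes share libraries. Nociceptor library 4 was the high one for SLC30A8 (gap share 0.930, at 0.498 TPM), COL2A1 (0.926, 7.20 TPM), ENO2 (0.867, 551 TPM), JPH4 (0.838, 24.8 TPM) and SUSD2 (0.838, 6.47 TPM), and the low one for ARL6IP6 (0.879, 13.0 TPM). Nociceptor library 3 was the high one for IFI27 (0.948, 89.3 TPM) and for SERPING1 (0.916, 48.8 TPM). Nociceptor library 2 was the high one for SMIM45 (0.901, 0.573 TPM), and nociceptor library 1 for COL17A1 (0.831, 2.10 TPM).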

How the results depend on the processing

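The count of genes passing an adjusted p of 0.05 was 0 in edgeR and stayed 0 with every library left out in turn and with the COL1A1 covariate. It was also 0 with the replicate number as a block, a fit without nociceptor library 4. But it was 123 with DESeq2 (58, 34, 21 and 860 without nociceptor libraries 1 to 4, and 18, 15 and 1371 without mechanoreceptor libraries 1 to 3, added after seeing the data) and 4362 with limma's sample weights. At an unadjusted p under 0.05 the 1320 genes became 6473 with sample weights, 749 with the COL1A1 covariate, 1360 with a 2-class COL1A1 term and 486 to 2580 with 1 library left out. The higher and lower shares of these moved with the scaling and the fit: 579 and 741 in edgeR, 445 and 887 with median-ratio scaling, 391 and 358 with the covariate, 461 and 899 with the 2-class term, 848 and 647 on log2(TPM + 1), 460 and 1258 with DESeq2. For transcripts edgeR called 0, also with any library left out, and DESeq2 529. Genes whose groups did not overlap in TPM numbered 1594, and 1885 to 4859 with 1 library left out. The cause of these differences was not tested. The sign turned for NTRK2 with sample weights (0.046). Of the other log2 fold changes recomputed for named genes, 2150 kept direction and side of the threshold and 159 kept direction and passed it.

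The correlations of deviations did not settle whether the replicate numbers pair the libraries. For numbers 1, 2 and 3 they were 0.17, -0.11 and 0.49. Mechanoreceptor library 1 had -0.34 and -0.46 with nociceptor libraries 2 and 3. Mechanoreceptor library 2 had -0.34 and -0.28 with nociceptor libraries 1 and 3. Mechanoreceptor library 3 had 0.10 and 0.30 with nociceptor libraries 1 and 2. With nociceptor library 4, mechanoreceptor libraries 1 to 3 had 0.39, 0.52 and -0.60. The fit with the replicate block left out nociceptor library 4, the only library numbered 4. In it 0 genes passed and 2390 had an unadjusted p under 0.05, against 2580 without that library and without the block.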
